A study of Mus musculus with 71 samples.

Results

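Dopamine and noradrenaline act on neurons and glia through G protein-coupled receptors. Drd1 and Drd5 encode the dopamine receptors that stimulate adenylyl cyclase, and Drd2 encodes one that inhibits it. The alpha-1 receptors (Adra1a, Adra1b, Adra1d) activate phospholipase C, the alpha-2 receptors (Adra2a, Adra2c) inhibit adenylyl cyclase, and the beta-1 receptor (Adrb1) stimulates it. In the hippocampus these receptors are known for modulating synaptic plasticity and memory consolidation when dopamine and noradrenaline are released by salient or new events.

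These 9 receptor genes, of 57010 genes in the count table, are described here in all 12 groups. They were chosen by a measured value, the change of Drd5 between ORM+12 h and HC zt15 under HFS TRF, where Drd5 had been named as the top rising gene, and the other 8 were taken as its receptor families. That contrast is therefore given without a test for any of the 9 genes, and Drd5 has no test in any comparison that uses those mice.

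The data come from 71 male wild-type C57BL/6J mice, whose hippocampal mRNA was captured by pS6-TRAP, an immunoprecipitation with antibodies to phosphorylated ribosomal protein S6 that retains mRNA on ribosomes of recently active cells. Diets began at weaning at 3 weeks of age and lasted 12 weeks. NC ad lib mice had normal chow and HFS ad lib mice a high fat-high sucrose diet at all times, and HFS TRF mice had the latter ad libitum for 8 weeks and then for 4 weeks with food from zt11 to zt1 (zt, hours after lights on). In each diet, mice were killed undisturbed from the home cage at zt3 (HC zt3) or zt15 (HC zt15), or 1 h (ORM+1 h) or 12 h (ORM+12 h) after a 10 min object recognition training given between zt2 and zt4. Every group held 6 mice, except 5 in HFS TRF HC zt15. HC zt3 and ORM+1 h formed the first experiment and HC zt15 and ORM+12 h the second, so the experiment and the hour of sampling cannot be told apart.

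Total counts per mouse ranged from 34698914 to 62758570 (median 53999489). Neuronal markers summed to 10782 to 15506 CPM (counts scaled to the library's total) and astrocyte markers to 473 to 2960 CPM, and endothelial markers to 0.814 to 14.7 CPM. Markers of tissue next to the hippocampus differed widely between mice, from 148 to 24666 CPM for choroid plexus and from 79.7 to 416 CPM for thalamus. No unpurified RNA was analysed here, and in such bulk samples fewer cells of a type and less captured RNA per cell cannot be told apart.

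In GRCm39 Drd5 (chr5:38476710-38479861, + strand) and Adra2c (chr5:35435663-35439107, + strand) lie on the same chromosome. Adra1a lies at chr14:66872700-67012152 (+ strand), Adra1b at chr11:43665433-43792037 (- strand) and Adra1d at chr2:131385993-131404693 (- strand). Promoter sequence was matched from RefSeq for 7 of the 9 genes (9 windows of 250 bases before the start that RefSeq gives, matched by sequence to GRCm39). GENCODE vM39 starts Adra2c (at 35435663) and Adra2a (chr19:54032582-54037413, + strand) further upstream, so the stretches shown for these genes lie inside the annotated gene and not before it. Shown are the stretch before the annotated gene for Drd5, the gene that guided the choice, and 30 bases around the E-box (CACGTG, a motif bound by clock factors among others) for both alpha-2 receptor genes. These were the genes with an E-box among the 7, against 6.02% of 32851 windows of the same length. Capitals mark the E-box, the GC box (GGGCGG or its complement) and the core of the cAMP response element (TGACG).
Drd5, chr5:38476602-38476709, + strand: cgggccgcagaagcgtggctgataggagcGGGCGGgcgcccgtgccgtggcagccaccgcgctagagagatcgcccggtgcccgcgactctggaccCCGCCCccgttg
Adra2c, chr5:35435746-35435775, + strand: caactcaggccaCACGTGacagaacctctg
Adra2a, chr19:54033598-54033627, + strand: gggtcgacttccCACGTGggggcTGACGcc
The Drd5 stretch held 2 GC boxes, 1 on each strand, a motif found on either strand in 32.7% of windows. The Adra2a stretch also held the cAMP response element core, found in 17.8% of windows. Both shares are of whole windows of 250 bases, longer than the stretches shown. GC boxes were also in windows of Drd1, Drd2, Adra1b, Adra2a and Adrb1. The cAMP response element core was also in the window of Adrb1. The full element (TGACGTCA, in 1.55% of windows) was in none of the 9 windows. A match of letters is a description and not evidence of binding.

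The 9 genes differed widely in level. Adra1d had the highest counts, 2641 to 5154 per mouse. It was followed by Adra2c with 552 to 1828, Drd5 with 585 to 1503, Adra2a with 474 to 1222 and Adrb1 with 430 to 918 counts. The other 4 genes were sparser, with 49 to 773 counts for Adra1b, 71 to 249 for Adra1a, 60 to 232 for Drd2 and 24 to 188 for Drd1, so their values carry more counting error. Drd3, Drd4, Adra2b and Adrb3, of the same families, had medians of 0 to 16 counts per mouse and were near the limit of detection.

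Divided by exon length, the mean level over all mice was 18.2 ± 2.25 CPM per kilobase (SD, n = 71) for Adra1d. Drd5 (5.88 ± 1.06 CPM per kilobase) and Adra2c (5.85 ± 1.21) came next. Drd5 exceeded Adra2c in 39 of 71 mice, so these neighbours did not differ beyond their spread. Adrb1 (3.65 ± 0.565) and Adra2a (3.08 ± 0.665) differed by less than the larger SD, though Adrb1 was higher in 58 of 71 mice. Adra1b (1.01 ± 0.599) and Drd2 (0.751 ± 0.226) did so too, with Adra1b higher in 48 of 71 mice. Drd1 reached 0.341 ± 0.12 CPM per kilobase. Adra1a was last at 0.13 ± 0.0348, a level that depends on the length used. Its 21 annotated transcripts cover 20155 bases of exon, and the longest transcript alone gives 0.24 CPM per kilobase.

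**Figure D1:**
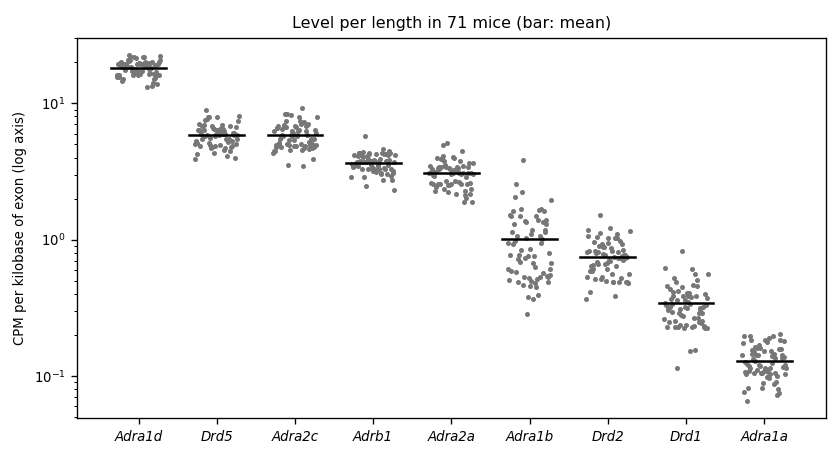
Level of each receptor mRNA in CPM per kilobase of exon (log axis), 1 point per mouse in 71 mice with the mean as a bar. Adra1d stands above every other receptor in each mouse, Drd5 and Adra2c overlap, and Drd1 and Adra1a are lowest.

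Each gene's mean was then ordered over the 12 groups. In 6 of the 9 genes (Drd5, Drd2, Adra1d, Adra2a, Adra2c and Adrb1) the highest mean was in HFS TRF ORM+12 h, a group whose mice entered the contrast that guided the choice. The share of all genes highest in that group was not counted, so this is a description only. The ratio of the highest to the lowest group mean ran from 1.25 for Adrb1 to 2.2 for Adra1b. Of the 11 steps between neighbouring groups in each gene's order, none exceeded the larger SD of the pair, except 1 step for Drd5, between its highest group and the next. That group was used to choose Drd5, so nothing is read from this step.

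**Figure D2:**
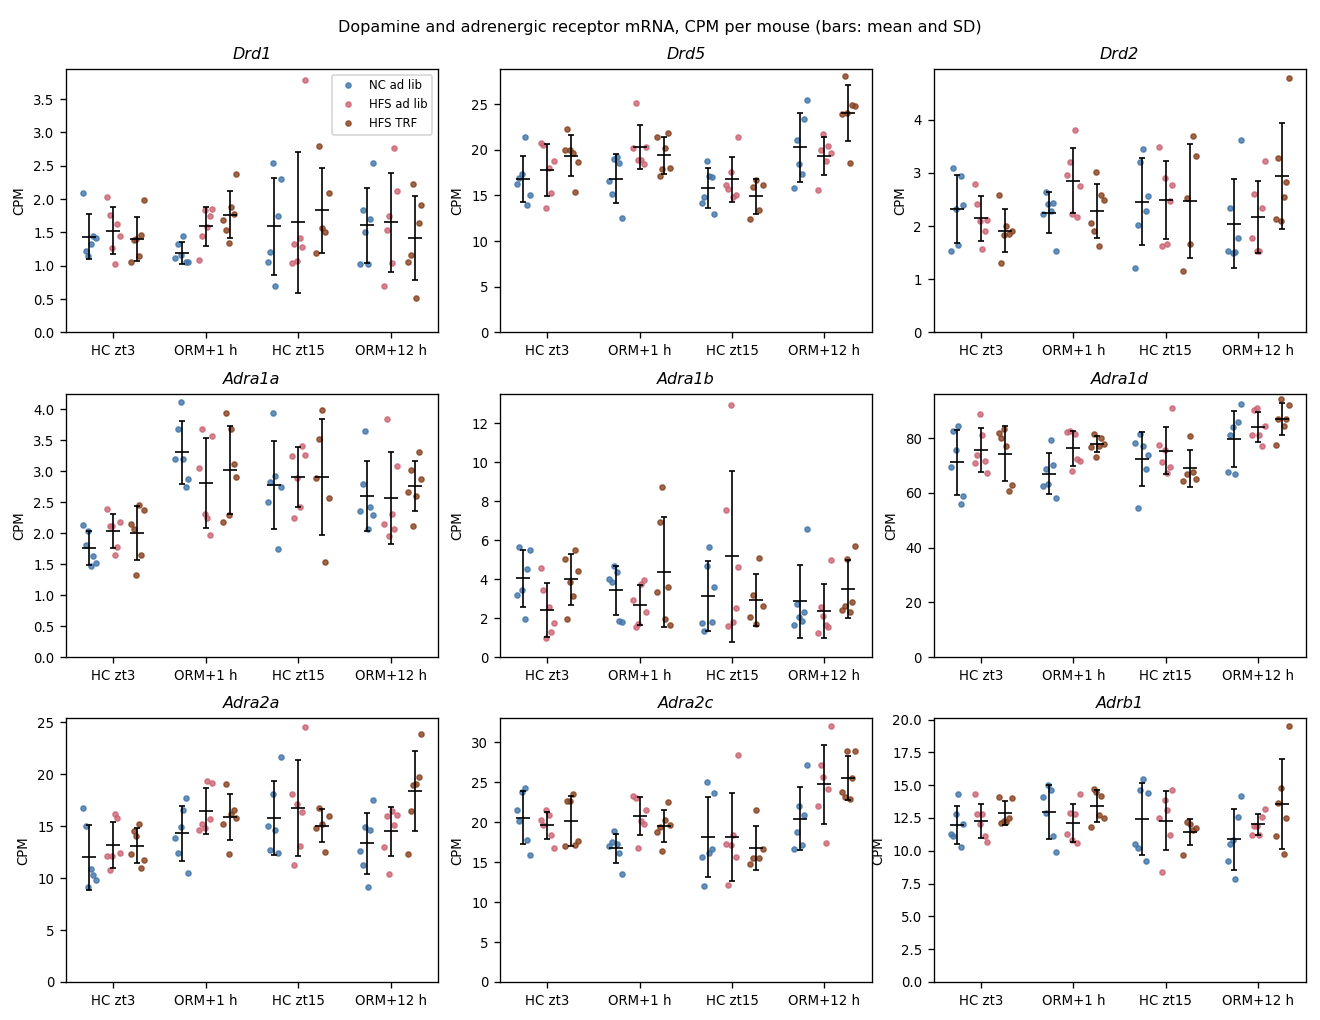
CPM of the 9 receptor genes in each mouse by condition and diet, with the group mean and SD as bars and each axis starting at 0. Adra1a is higher in NC ad lib ORM+1 h (2.75 to 4.11 CPM) than in NC ad lib HC zt3 (1.47 to 2.13 CPM) with no overlap, and Adra1b varies widely between mice of 1 group.

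At 1 h after training the question was which receptor mRNAs differed from those of undisturbed home cage mice. In this contrast learning cannot be told apart from the other parts of the training session. The alpha-1A receptor gene Adra1a rose 1 h after training in NC ad lib mice, by 1.87-fold between the group means. Its level ran from 1.47 to 2.13 CPM (median 1.72) at HC zt3 and from 2.75 to 4.11 CPM (median 3.19) at ORM+1 h. All 6 trained mice lay above all 6 home cage mice, and the share of all genes without overlap was not counted. The log2 fold change was 0.90 ± 0.19 (standard error of the fit) and edgeR's quasi-likelihood test gave a p of 7.8e-04 after Benjamini-Hochberg adjustment. It was 0.83 to 0.97 when single mice were left out. Adra1a was the 1 of 9 receptor genes called, against 5.73% of all 30141 genes tested.

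In HFS ad lib mice Adra1a was 1.65 to 2.39 CPM (median 2.11) at HC zt3 and 1.97 to 3.68 CPM (median 2.68) at ORM+1 h. In HFS TRF mice it was 1.33 to 2.46 CPM (median 2.11) and 2.18 to 3.93 CPM (median 3.01). The groups overlapped in both diets, and 3 and 4 of the 6 trained mice exceeded all their controls. The log2 fold changes of 0.46 ± 0.19 (edgeR adjusted p = 0.252) and 0.59 ± 0.19 (adjusted p = 0.0744) did not pass the test, although for HFS TRF DESeq2 gave an adjusted p of 0.0277, and edgeR gave 0.0447 (log2 fold change 0.67) without HFS TRF ORM+1 h replicate 1. No receptor gene was called by edgeR in these diets, against 1.23% and 2.87% of all genes. At an unadjusted p under 0.05 there were 2 in HFS ad lib (Adra1a and Adra2a) and 1 in HFS TRF (Adra1a). Of all 30141 genes, 4161 and 4335 were under that threshold. DESeq2 called 0 and 1 of the receptor genes.

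The difference between diets was tested directly. Adra1a's response was lower in HFS ad lib than in NC ad lib by -0.44 ± 0.27 on the log2 scale (adjusted p = 0.877), and HFS TRF differed from HFS ad lib by 0.13 ± 0.27 (adjusted p = 1, edgeR interaction terms). A difference between diets in this response was thus not detected.

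Among the other receptors at 1 h, Adra2a, the main presynaptic and postsynaptic alpha-2 receptor of the brain, had log2 fold changes of 0.27 under HFS TRF, 0.32 under HFS ad lib and 0.26 under NC ad lib, none called. Adra2c had -0.30 ± 0.14 in NC ad lib (edgeR adjusted p = 0.234). Drd5 had 0.01, 0.19 and 0.00 in the 3 diets. The median over the 9 genes was -0.04, 0.15 and 0.13 log2 units, beside medians of 0.00, 0.00 and -0.01 over all genes. The log2 fold changes of Drd5, Adra1d and Adrb1 ran from -0.09 to 0.19 over the 3 diets, and none was called.

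Markers of astrocytes moved with Adra1a. In NC ad lib mice their summed level was 663 to 1093 CPM at HC zt3 and 1549 to 2960 CPM at ORM+1 h, and 6 of 6 markers rose. In HFS TRF it was 473 to 1464 and 1231 to 2373 CPM, with 5 of 6 risen, and in HFS ad lib 512 to 2201 and 1043 to 2485 CPM, with 0 of 6. Across the 71 mice, which share group and library, log2 Adra1a and the log2 marker sum had a Pearson r of 0.60, and 0.28 for deviations from the group means. Within groups r was 0.35 both for oligodendrocyte precursor markers and for CA1 pyramidal cell markers. Between HC zt3 and ORM+1 h in NC ad lib mice the precursor sum was 106 to 118 and then 118 to 153 CPM, with 0 of 5 markers called. The neuron sum was 12286 to 14258 and then 10782 to 12245 CPM, without overlap, with 2 of 6 markers fallen. The part of these markers in the Adra1a result was not tested. The genes most like Adra1a over the 71 mice, of 14649 genes compared, were Igdcc4 (r = 0.75), Elovl5 (r = 0.72) and Slc1a2 (r = 0.71), the last an astrocytic glutamate transporter.

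**Figure D3:**
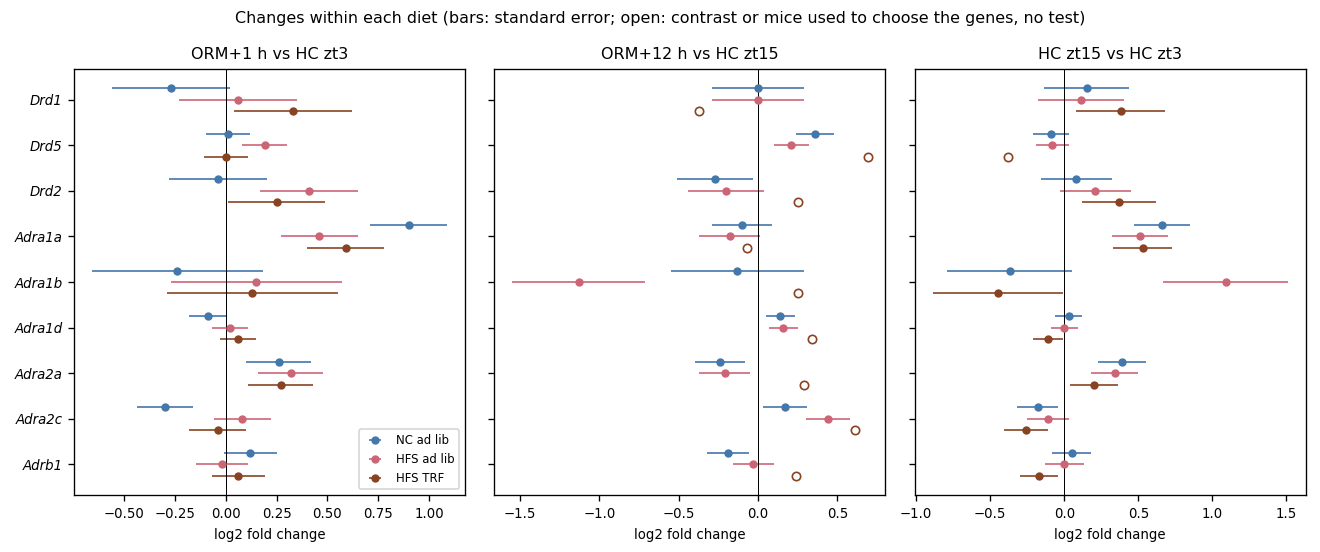
Log2 fold change of each receptor gene in the 3 comparisons within each diet, with the standard error of the fit as bars. Open circles are values of the contrast or of mice used to choose the genes and carry no test. Adra1a lies to the right of 0 in all 3 diets at 1 h and at zt15, and Adra1b has the widest bars.

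The 12 h comparison asked what was still changed the night after training, with HC zt15 as the control. The contrast under HFS TRF, which guided the choice, is described without a test. Drd5 was 12.4, 15.9, 16.7, 13.4 and 16.2 CPM in the 5 HFS TRF HC zt15 mice and 18.6 to 28.1 CPM (median 24.4) in the 6 ORM+12 h mice. Adra2c was 14.8, 15.5, 21.5, 15.5 and 16.6 CPM and then 22.9 to 28.9 CPM (median 24.7). For both genes the groups did not overlap. How many of all genes did the same was not counted, and the choice of Drd5 favoured it. Adra1d was 64.4, 66.9, 80.8, 67.6 and 65.2 CPM and then 77.5 to 94.3 CPM (median 87.1), and 5 of the 6 trained mice exceeded all their controls.

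The fitted log2 fold changes under HFS TRF were 0.69 for Drd5, 0.61 for Adra2c and 0.34 for Adra1d. They were 0.29 for Adra2a, 0.25 for Drd2 and Adra1b, 0.24 for Adrb1, -0.07 for Adra1a and -0.37 for Drd1. In this contrast 2.46% of all genes were called in either direction, and nothing is read from it for genes chosen on it. Without single mice, Drd5 ranged from 0.63 to 0.75 and Adra2c from 0.56 to 0.71, and the sign of Adra1a turned (-0.23 to 0.07).

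Cell type markers differed between the same HFS TRF groups. From HC zt15 to ORM+12 h the summed astrocyte markers were 1651 to 2445 and then 1101 to 1605 CPM, and myelinating oligodendrocyte markers 697 to 913 and then 960 to 1149 CPM, both without overlap. Dentate granule cell markers were 294 to 378 and then 364 to 461 CPM, with overlap, and CA1 pyramidal cell markers 474 to 621 and then 534 to 721 CPM. Choroid plexus markers had a median of 11218 CPM (523 to 24666) and then 556 CPM (263 to 13120). Striatum markers had a median of 479 CPM (275 to 528) and then 263 CPM (248 to 398). Both overlapped. Their part in the receptor values was not tested.

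Mice of the ad lib diets were not used in the choice, so there the genes can be tested. In NC ad lib mice Drd5 was 13 to 18.8 CPM (median 15.9) at HC zt15 and 15.8 to 25.5 CPM (median 19.8) at ORM+12 h. Its log2 fold change of 0.36 ± 0.12 had an unadjusted p of 0.00287 and an adjusted p of 0.148 in edgeR's test, and 3 of 6 trained mice lay above every home cage mouse. In HFS ad lib mice Drd5 was 14.8 to 21.4 CPM (median 16) and 15.6 to 21.7 CPM (median 19.9), a log2 fold change of 0.21 ± 0.11 (edgeR adjusted p = 0.357). Both differences pointed upward and neither passed the test.

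Adra2c was 12.1 to 28.4 CPM (median 17.2) at HC zt15 and 17.4 to 32 CPM (median 24.9) at ORM+12 h in HFS ad lib mice. The log2 fold change was 0.44 ± 0.14, with an adjusted p of 0.143 in edgeR's test. It varied with single mice, since without HFS ad lib HC zt15 replicate 6 it was 0.62 with an adjusted p of 0.0114, and without HFS ad lib ORM+12 h replicate 4 it was 0.53 (0.0405). In NC ad lib mice the log2 fold change of Adra2c was 0.17 ± 0.14 (edgeR adjusted p = 0.588). That of Adra1d was 0.14 ± 0.09 for NC ad lib (edgeR adjusted p = 0.431) and 0.16 ± 0.09 for HFS ad lib (0.364).

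No receptor gene was called by edgeR at 12 h in NC ad lib or HFS ad lib mice, against 0.209% and 0.179% of all genes. At an unadjusted p under 0.05 there were 1 (Drd5) and 2 (Adra2c and Adra1b), against 5050 and 5129 of all 30141 genes. DESeq2 called 0 in both diets. The interaction of HFS ad lib against NC ad lib at 12 h called 0 of 9 receptor genes, 0 at an unadjusted p under 0.05 and 0 by DESeq2, against 0.106% of all genes.

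Levels of Drd5, Adra2c and Adra1d varied together between mice. These genes had the largest rises in the contrast that guided the choice. The mice of that contrast are included, which favours a high correlation over all mice. Pearson r of log2 CPM over the 71 mice was 0.75 for Adra1d with Adra2c, 0.64 for Drd5 with Adra2c and 0.64 for Drd5 with Adra1d. For deviations from the group means these were 0.68, 0.50 and 0.51. This was not particular to these genes. Within groups r was 0.64 for Drd2 with Adra1b, 0.60 for Adra2c with Adrb1 and 0.58 for Adra1b with Adrb1. The mice share tissue composition and library, and no test is given. Within groups, r with markers of CA1 pyramidal cells was 0.50 for Drd5, 0.53 for Adra2c and 0.52 for Adra1d. With interneuron markers it was 0.33, 0.59 and 0.45, with mossy cell markers 0.28, 0.39 and 0.46, and with neuron markers 0.31, 0.22 and 0.46. With astrocyte markers it was -0.33, -0.20 and -0.35. Among the genes most like Drd5 were Ust (r = 0.77) and Galnt17 (r = 0.76). Genes most like Adra2c were Adgrb2, Nlgn2 and Slc17a7 (r = 0.89, 0.88 and 0.87), the last the vesicular glutamate transporter of hippocampal pyramidal cells. Genes most like Adra1d were Mmp17, Adgrl1 and Entrep2 (r = 0.88, 0.87 and 0.87).

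The Drd5 exon of 3152 bases shares 54.8% of its bases with exons of an antisense long non-coding RNA, Gm26560, and the strand setting of the counting is not given in the sources used here. Gm26560 itself had 22 to 124 counts per mouse. Its mean was 1.06 CPM in HFS TRF HC zt15 and 1.18 CPM in HFS TRF ORM+12 h. For Adra1d the antisense gene Gm14285 shares 21.3% of exon bases and had 66 to 215 counts. The study's libraries were made with a stranded kit. If strand was not used in the counting, reads of such pairs cannot be told apart.

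Comparing HC zt15 with HC zt3 asked which receptor mRNAs differed between night and day in undisturbed mice. Adra1a was higher at zt15 in NC ad lib mice, at 1.75 to 3.93 CPM (median 2.78) against 1.47 to 2.13 CPM (median 1.72), with 5 of 6 mice above every zt3 mouse. The log2 fold change was 0.66 ± 0.19 (edgeR adjusted p = 0.0139). This call rested on 1 mouse, since without NC ad lib HC zt15 replicate 3 the value was 0.53 (adjusted p = 0.0713). Over the 57 mice with under 200 CPM of thalamus markers, 3 to 6 per group, it was 0.55 ± 0.25 (edgeR adjusted p = 0.186). Adra1a was the 1 of 9 called in NC ad lib, against 11.7% of all genes, a share close to this background.

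In HFS ad lib mice Adra1a was 2.24 to 3.4 CPM (median 3.07) at zt15, and the log2 fold change was 0.51 ± 0.19 (edgeR adjusted p = 0.0683, DESeq2 adjusted p = 0.0437). In the 5 HFS TRF mice at zt15 it was 2.89, 3.51, 3.98, 1.54 and 2.57 CPM, and the change was 0.53 ± 0.20 (edgeR adjusted p = 0.0592, DESeq2 adjusted p = 0.0375). Adra1a was thus higher on average at zt15 in the 3 diets, and the size of this difference was not detectably different between diets (interaction -0.14 ± 0.27 for HFS ad lib against NC ad lib and 0.02 ± 0.27 for HFS TRF against HFS ad lib, adjusted p = 0.999 and 1 by edgeR). edgeR called 0 of 9 receptor genes in HFS ad lib, against 10.4% of all genes, and 0 of 8 in HFS TRF, against 14.2%. DESeq2 called 1 in each, and 3 and 1 had an unadjusted p under 0.05, against 7651 and 8315 of all 30141 genes. Single mice decided this side of the threshold too. In HFS ad lib, Adra1a was at 0.58 (edgeR adjusted p = 0.0471) without HC zt15 replicate 2. In HFS TRF it was at 0.60, 0.59 and 0.69 without HC zt3 replicate 4, HC zt3 replicate 6 and HC zt15 replicate 4 (edgeR adjusted p of 0.0455, 0.0458 and 0.0121).

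Astrocyte markers again differed in the same direction, summing to 811 to 2599 CPM at zt15 in NC ad lib mice, with 6 of 6 markers risen against zt3. In HFS ad lib the sum was 1038 to 2608 CPM with 1 of 6 risen, and in HFS TRF 1651 to 2445 CPM with 5 of 6. CA1 pyramidal cell markers fell, 4 of 5 in NC ad lib, 3 of 5 in HFS ad lib and 4 of 5 in HFS TRF. The part of either in the receptor values was not tested. Adra2a had log2 differences of 0.20 ± 0.16 under HFS TRF, 0.34 ± 0.16 under HFS ad lib and 0.39 ± 0.16 under NC ad lib (edgeR adjusted p of 0.472, 0.153 and 0.0925). Without NC ad lib HC zt3 replicate 1 the last was 0.51 with an adjusted p of 0.0262. Adra2c had -0.18, -0.11 and -0.26, and none of these was called. Drd5 had -0.09 and -0.08 in the ad lib diets, and -0.38 in HFS TRF, given without a test.

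Adra1b differed most between mice of 1 group. Its SD was a median of 51.2% of the group mean, against 10.9% for Adra1d and 13.2% for Drd5. In HFS ad lib HC zt15 mice it ran from 1.58 to 12.9 CPM (median 3.57), and in HFS ad lib ORM+12 h mice from 1.25 to 5 CPM (median 1.88). The 12 h difference in this diet was the largest fitted for any receptor gene in any comparison within a diet, with a log2 fold change of -1.13 ± 0.42, and did not pass the test (edgeR adjusted p = 0.202). Without single mice it ranged from -1.50 to -0.61.

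Thalamus markers (Tcf7l2, Prkcd, Slc17a6, Rora and Ntng1) moved with Adra1b. Over the 71 mice log2 Adra1b and the log2 marker sum had r = 0.85, and 0.86 within groups, as a description. With mossy cell markers r within groups was 0.64. The thalamus marker sum ran from 89.6 to 375 CPM in HFS ad lib HC zt15. In HFS ad lib ORM+12 h it ran from 85.8 to 126 CPM. When the 14 mice at or above 200 CPM of these markers were left out, a choice made after seeing the data, groups held 3 to 6 mice. The 12 h difference of Adra1b in HFS ad lib was then -0.16 ± 0.37 (edgeR adjusted p = 0.936). Since Adra1b moved with these markers, this exclusion removes mice with high Adra1b, so no cause is read from the smaller difference. The night against day difference of Adra1b in HFS ad lib went from 1.09 ± 0.42 (edgeR adjusted p = 0.0879) to 0.39 ± 0.39 (0.642). With all other mice kept, that difference was called without HC zt3 replicate 1 (1.36), HC zt15 replicate 2 (1.27) or HC zt15 replicate 4 (1.26), with edgeR adjusted p of 0.0431, 0.0439 and 0.0456. Under the same exclusion Adra1a at 1 h in NC ad lib was 0.81 ± 0.24 (edgeR adjusted p = 0.0413), Drd5 at 12 h under HFS TRF was 0.67, and Adra1b in that contrast went from 0.25 to 0.71, both without a test.

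**Figure D4:**
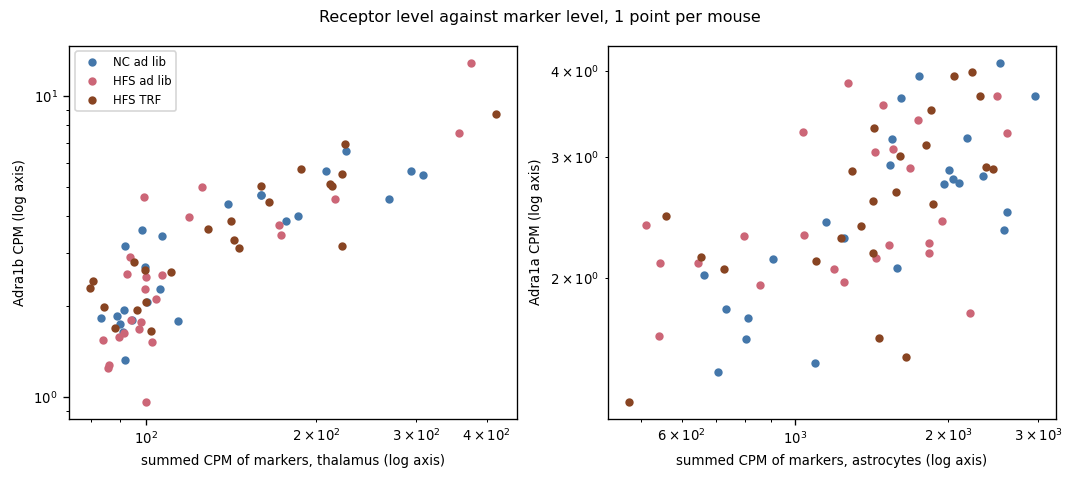
Receptor CPM against the summed CPM of marker genes (both log axes), 1 point per mouse in 71 mice, coloured by diet. Adra1b rises with thalamus markers over 79.7 to 416 CPM, and Adra1a rises more loosely with astrocyte markers over 473 to 2960 CPM.

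The genes most like Adra1b were Zdhhc22, Ramp3 and Rims3 (r = 0.90, 0.88 and 0.87). Rims3 was also the gene most like Drd2 (r = 0.68), followed by Cit (0.62) and Wnt9b (0.60). Drd2, in the hippocampus a gene of hilar mossy cells, moved within groups with the other mossy cell markers (r = 0.58) and with thalamus markers (r = 0.63), and with Adra1b itself (r = 0.64). The likeness to mossy cell markers was not particular to Drd2. Within groups it was 0.64 for Adra1b, 0.50 for Adra2a and 0.49 for Adrb1, and 0.04 for Adra1a. Of these markers Ajap1 and Calb2 averaged 73 and 34.9 CPM, and Nmb and Csf2rb2 1.77 and 0.45 CPM. For striatum, where Drd1 and Drd2 are most abundant, r within groups was -0.04 for Drd1 and -0.19 for Drd2. The 8 striatal markers summed to 216 to 600 CPM, with means from 0.303 CPM for Gpr6 and 0.379 CPM for Adora2a to 81.3 CPM for Pde10a and 204 CPM for Ppp1r1b. Drd1 was most like Snx25, Cckbr and Norad (r = 0.51, 0.51 and 0.50), the weakest likeness of the 9 genes. Adra2a was most like Blcap, Gfra1 and Paqr4 (r = 0.72, 0.72 and 0.69), and Adrb1 was most like Kcnj9, Reep1 and Cacna1g (r = 0.79, 0.72 and 0.71).

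Neither Drd1 nor Drd2 was called in any comparison that was tested. Drd1 was 1.14 to 2.09 CPM (median 1.36) at HC zt3 and 1.05 to 1.45 CPM (median 1.13) at ORM+1 h in NC ad lib mice. Drd2 was 1.57 to 2.79 CPM (median 2.1) and 2.18 to 3.81 CPM (median 2.86) in HFS ad lib mice in the same comparison. The SD within groups was a median of 29.2% of the group mean for Drd1 and 28.6% for Drd2. Neither of these differences passed the test, with log2 fold changes of -0.27 ± 0.29 and 0.41 ± 0.24 (edgeR adjusted p of 0.714 and 0.481). Adrb1, the main beta receptor of the forebrain, had the flattest profile, between 10.9 ± 2.28 CPM (SD, n = 6) in NC ad lib ORM+12 h and 13.5 ± 3.43 CPM (n = 6) in HFS TRF ORM+12 h.

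The comparisons between diets at a fixed condition asked whether feeding alone shifted receptor mRNA. For HFS ad lib against NC ad lib, edgeR called 0 of 9 receptor genes at HC zt3, ORM+1 h, HC zt15 and ORM+12 h, where it called 0%, 0%, 0.063% and 2.27% of all genes. At an unadjusted p under 0.05 there were 0, 3, 0 and 0, the 3 being Drd5 (0.27 ± 0.11), Adra1d (0.19 ± 0.09) and Adra2c (0.31 ± 0.14) at ORM+1 h, each with an adjusted p of 0.496 or more by edgeR. Of all 30141 genes, 2527, 2881, 3753 and 6400 had an unadjusted p under 0.05 in these 4 conditions. DESeq2 called 0, with no adjusted p at ORM+1 h for any of the 9 genes.

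For HFS TRF against HFS ad lib, edgeR called 0 of 9 at HC zt3 and ORM+1 h and 0 of 8 at HC zt15 and ORM+12 h, against 0%, 0%, 0% and 0.00664% of all genes. The unadjusted counts were 0, 0, 0 and 1, against 1774, 1971, 4694 and 3704 of all 30141 genes. The 1 gene was Adra2a at ORM+12 h, with 12.3 to 23.9 CPM (median 19.1) in HFS TRF against 10.4 to 16.5 CPM (median 15.5) in HFS ad lib. Its log2 difference was 0.34 ± 0.16 (edgeR adjusted p = 0.381), and DESeq2 called 0. Drd5, without a test, was 18.6 to 28.1 CPM in HFS TRF and 15.6 to 21.7 CPM in HFS ad lib at ORM+12 h. The interactions of diet with 1 h training and with time of day called 0 receptor genes by edgeR and DESeq2, against 0% of all genes. Adra1b alone had an unadjusted p under 0.05, in both interactions with time of day, where 2828 and 2535 of all 30141 genes did.

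The receptors signal through G proteins, adenylyl cyclases, protein kinase A, phospholipase C and protein kinase C, phosphodiesterases, arrestins and RGS proteins, and their ligands are made, taken up and broken down by a further set. Of 69 such genes, sparse receptors of the same families included, 68 were tested. At 1 h, 5 rose and 6 fell in NC ad lib (16.2%), 3 rose and 2 fell in HFS ad lib (7.35%), and 1 rose and 1 fell in HFS TRF (2.94%). Over all genes the shares called were 5.73%, 1.23% and 2.87%, so the HFS TRF share was near the background. The medians of their log2 fold changes were -0.11, -0.04 and 0.00. At 12 h edgeR called 0 of 68 under either ad lib diet, with 11 (NC) and 13 (HFS) at an unadjusted p under 0.05. Of all 30141 genes, 5050 and 5129 were under that threshold.

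Among the genes acting below alpha-1 receptors, Plcb3, a phospholipase C, rose at 1 h in NC ad lib by 0.94 ± 0.20 on the log2 scale (edgeR adjusted p = 6.8e-04), close in size to Adra1a. Among the inhibitory G protein alpha subunits Gnai2 (0.35) and Gnai3 (0.44) rose. Maob, a monoamine oxidase that breaks down dopamine and is found in astrocytes, rose by 1.15 ± 0.28 (adjusted p = 0.0052).

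Arrb2, an arrestin that desensitizes these receptors, fell at 1 h in the 3 diets, with log2 fold changes of -0.34 under HFS TRF, -0.33 under HFS ad lib and -0.31 under NC ad lib (edgeR adjusted p of 0.00251, 0.00667 and 0.00272). Prkar2a, a regulatory subunit of protein kinase A, rose in the 3 diets by 0.24, 0.26 and 0.26. The receptor kinase gene Grk2 (-0.31) and Rgs9 (-0.38), also 1 of the striatal markers, fell in NC ad lib, and Rgs2 (0.36) and Rgs4 (0.45) rose in HFS ad lib. The 9 adenylyl cyclase genes had no call at 1 h or at zt15 by edgeR in any diet.

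Between zt15 and zt3, 5 of 68 pathway genes rose and 11 fell under HFS TRF (23.5%). The counts were 4 and 4 under HFS ad lib (11.8%) and 5 and 7 under NC ad lib (17.6%). Over all genes the shares called were 14.2%, 10.4% and 11.7%, so the HFS ad lib share was near the background. Pde1a, a cyclic nucleotide phosphodiesterase, was lower at zt15 in the 3 diets by -0.31 ± 0.08, -0.41 ± 0.08 and -0.62 ± 0.09 on the log2 scale (edgeR adjusted p of 0.00661, 2.1e-04 and 9.2e-08). Gnai2 was higher in the 3 diets, by 0.32, 0.28 and 0.35. Plcb1, the main phospholipase C of hippocampal neurons, was lower in HFS ad lib (-0.36) and HFS TRF (-0.42). Maob was higher in NC ad lib (1.17) and HFS TRF (0.89), and Plcb3 was higher in NC ad lib (0.69). In the comparisons between diets and in their interactions 0 of 68 pathway genes were called by edgeR, with 1 to 15 at an unadjusted p under 0.05. Of all 30141 genes, 1685 to 6400 were under that threshold in these comparisons.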

How the data were processed

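Hippocampal pS6-TRAP RNA-seq of 71 mice was analysed. Per the labels and the study's methods, the authors trimmed reads (Trim Galore 0.6.7, cutadapt 3.4), aligned them to GRCm39 (HISAT2 2.2.0) and deposited raw counts per gene (featureCounts, Subread 2.0.3). Strand setting and annotation release are not given in the sources used here, and the labels also name mm9 without a role. Genes were matched to GENCODE vM39 (56310 of 57010). Counts were scaled with TMM, and 30141 genes (10 or more counts summed over all mice) were fitted in 1 model of 12 groups with edgeR 4.0.16 (quasi-likelihood test), adjusting p by Benjamini-Hochberg at 0.05. The study used DESeq2's Wald test, which was an alternative here (version 1.42.0). Standard errors are log2 fold change over the root of F. The members and all lists were chosen with earlier results of these data known. Some genes are not reported here. Genes named were otherwise the 9 receptors, up to 3 called genes per list with the smallest adjusted p, and the 3 genes most like each receptor (mean of at least 1 CPM, prior count 2). Over 175 pairs of libraries of 1 group, counts differed by 9.87 to 165 times sampling noise (chi-square per degree of freedom). Tests were tested on simulated data. Replicate numbers do not mark pairs. Alternatives are given in the closing section.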

Additional observations from a re-analysis of the deposited data

Results flagged for a closer look

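In each of the 108 combinations of receptor gene and group, the highest or lowest mouse was compared with the rest by the gap to its neighbour over the range of the group (Dixon's test at 95%), which chance meets in about 1 of 20 groups. It was met in 8 (7.41%). For Adra1b these were replicate 6 of HFS ad lib ORM+12 h (5 CPM, next 2.56) and replicate 6 of NC ad lib ORM+12 h (6.57 CPM, next 2.7). For Drd1 they were replicate 6 of HFS ad lib HC zt15 (3.79 CPM, next 1.42) and replicate 1 of NC ad lib HC zt3 (2.09 CPM, next 1.44). In HFS TRF HC zt15, replicate 3 was highest for Adra1d (80.8 CPM, next 67.6) and Adra2c (21.5 CPM, next 16.6), and replicate 1 was lowest for Adrb1 (9.67 CPM, next 11.6). For Drd5, replicate 2 of HFS ad lib ORM+1 h was highest (25.1 CPM, next 20.3).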

How the results depend on the processing

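Counts of receptor genes called were recomputed with DESeq2, with the size factors of DESeq2 in edgeR, with at least 1 count, with filterByExpr, with only the groups compared, with a replicate block and without each mouse. DESeq2 called 1 gene (Adra1a) instead of 0 at ORM+1 h under HFS TRF and at HC zt15 against HC zt3 in HFS ad lib and HFS TRF. With only the 57 mice under 200 CPM of thalamus markers, the count at HC zt15 against HC zt3 in NC ad lib was 0 instead of 1. Without single mice the count ranged from 0 to 1 at ORM+1 h under HFS TRF, at ORM+12 h in HFS ad lib and at HC zt15 in HFS TRF, and from 0 to 2 at HC zt15 in NC ad lib and in HFS ad lib. The cause was not tested. The other counts stayed the same in these settings, and the order of levels per length was the same by longest transcript and by TPM.

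Replicate numbers did not pair mice. Among 17 comparisons, 0 had every pair correlated above 0.1 (r from -0.35 to 0.39), and in 0 did each mouse correlate best with its own number (at most 3 mice did). With a replicate block the count at ORM+1 h in NC ad lib was 1 and at HC zt15 against HC zt3 in NC ad lib 1, as without it. The Drd5 change at 12 h under HFS TRF with the block was 0.69. A block within condition could not be fitted for comparisons across conditions. Median counts per mouse were 80 for Drd1, 120 for Drd2, 133 for Adra1a and 158 for Adra1b, the lowest of the 9 genes.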
